A study of Homo sapiens with 30 samples.

Results

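Aminoacyl-tRNA synthetase genes were examined in 4 diffuse large B-cell lymphoma (DLBCL) cell lines treated with the PI3Kβ/δ inhibitor AZD8186. The genes were taken from a list of symbols, and 38 of the 21112 genes of the deposited tables matched it. They comprised 20 genes for cytosolic enzymes, 16 genes for mitochondrial enzymes and the scaffold genes AIMP1 and AIMP2. All 38 passed the filter on low counts in every comparison.

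Cells of the germinal center B-cell-like (GCB) lines K422 and HT and of the activated B-cell-like (ABC) lines TMD8 and OCI-Ly10 received 0.5 µM AZD8186 or the solvent DMSO. RNA was sequenced after 6, 12, 18 and 24 h, with no 12 h libraries for TMD8, so that 30 libraries formed 15 pairs of AZD8186 and DMSO. Each line, treatment and time was measured once, no source states separate cultures, and p-values therefore describe how far these libraries scatter, which could be technical variation alone. The sample labels name DMSO, whereas the description of the series calls the controls untreated. The methods state that the cell lines carried a murine ecotropic receptor and a bacterial tetracycline repressor, without saying whether this held for the sequenced cells.

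Each synthetase joins an amino acid to its matching tRNA, the step that supplies ribosomes with substrate. Cytosolic and mitochondrial protein synthesis mostly use enzymes from separate nuclear genes, with the suffix 2 marking the mitochondrial ones. The products of KARS and GARS serve both places. In the cytosol, several synthetases and the scaffolds AIMP1, AIMP2 and EEF1E1 form the multisynthetase complex. Many cytosolic synthetase genes are known targets of the transcription factor ATF4, which acts in the amino acid response, and tryptophanyl-tRNA synthetase, encoded by WARS, is also known as an interferon-induced gene.

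Promoter sequences are shown first so that known transcription factor motifs can be read beside the values of cytosolic and mitochondrial genes. RefSeq windows on GRCh38.p14, from 250 bases before to 50 bases after an annotated start, were matched to 32 of the 38 genes, with 44 windows. DARS, LARS, VARS, YARS, AARS2 and VARS2 were not matched. The motif TGATGNAA, the form of the C/EBP-ATF response element searched on both strands, stood in 33.3% of the 21 windows of cytosolic genes, in 5.56% of the 18 windows of mitochondrial genes and in 3.62% of all 35116 windows. The 7 cytosolic genes that held it are given with 25 bases on either side, along the gene's strand, and capitals mark the motif or its reverse complement.
AARS, chr16:70289661-70289718, minus strand: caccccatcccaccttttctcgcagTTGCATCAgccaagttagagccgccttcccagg
CARS, chr11:3057393-3057450, minus strand: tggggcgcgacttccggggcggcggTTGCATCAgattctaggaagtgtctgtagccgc
GARS, chr7:30594820-30594877, plus strand: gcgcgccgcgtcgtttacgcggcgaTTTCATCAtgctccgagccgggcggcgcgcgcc
IARS, chr9:92293678-92293735, minus strand: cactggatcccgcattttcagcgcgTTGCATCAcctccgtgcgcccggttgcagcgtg
MARS, chr12:57488039-57488096, plus strand: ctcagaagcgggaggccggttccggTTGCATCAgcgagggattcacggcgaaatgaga
NARS, chr18:57621790-57621847, minus strand: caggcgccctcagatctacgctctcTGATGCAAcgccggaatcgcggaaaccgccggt
TARS, chr5:33440942-33440999, plus strand: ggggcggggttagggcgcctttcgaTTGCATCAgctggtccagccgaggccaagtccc

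The E-box CACGTG is a motif bound by MYC among other factors. It stood in 22.2% of the mitochondrial windows, in 4.76% of the cytosolic windows and in 7.26% of all windows. A single EARS2 site lay in overlapping windows of that gene and was counted in each. By gene, 3 of the 14 mitochondrial genes with a window held the E-box, against 1 of the 16 cytosolic genes. A window of the scaffold gene AIMP2 also held the E-box. The mitochondrial genes with it were CARS2, EARS2 and MARS2, and they are shown because they were among the mitochondrial genes with lower levels in GCB lines. Capitals mark the E-box, which reads the same on both strands.
CARS2, chr13:110706488-110706543, minus strand: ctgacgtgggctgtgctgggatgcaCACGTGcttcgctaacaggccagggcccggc
EARS2, chr16:23557335-23557390, minus strand: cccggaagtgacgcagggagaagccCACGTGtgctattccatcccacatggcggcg
MARS2, chr2:197705333-197705388, plus strand: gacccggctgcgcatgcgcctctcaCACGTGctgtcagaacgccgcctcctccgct

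A match is a description of the letters in these windows and not evidence of binding. Among cytosolic genes with a window, 5 of the 7 with TGATGNAA and 8 of the 9 without it fell in GCB lines, where 23.5% of all genes tested did, and 4 of 7 against 3 of 9 fell in ABC lines, where 13.8% of all genes did. Among mitochondrial genes with a window, 3 of the 3 with CACGTG and 4 of the 11 without it fell in GCB lines, against 1 of 3 and 0 of 11 in ABC lines. For the other pairings of motif and kind, 1 of 1 cytosolic genes with CACGTG and 12 of 15 without it fell in GCB lines. In ABC lines 0 of 1 and 7 of 15 did. Of mitochondrial genes, 1 of 1 with TGATGNAA and 6 of 13 without it fell in GCB lines, against 0 of 1 and 1 of 13 in ABC lines. All these counts were read off after the calls were known and were not tested.

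Library totals ranged from 15820230 to 23579029 counts, and ribosomal RNA took 0.690% to 4.35% of them. The 5 B-cell markers were present in all lines, with a summed level of 1192 to 3213 TPM, the length-scaled share of transcripts. Myeloid and stromal markers stayed at or below 1.28 TPM when summed. The B-cell sum was 2229 to 3008 TPM with AZD8186 and 2139 to 2370 TPM with DMSO in K422, and its ranges did not overlap in HT, TMD8 and OCI-Ly10, where it was higher with AZD8186. The 5 markers did not move together. By edgeR 2 were lower and 1 higher in K422, 1 lower and 2 higher in HT, 0 lower and 3 higher in TMD8, and 1 lower and 3 higher in OCI-Ly10. The 3 T-cell markers summed to 63.3 to 83.4 TPM in AZD8186-treated K422 and 75.3 to 88.3 TPM with DMSO, and to at most 3.83 TPM in the other lines. Of these, CD3E rose in K422 by 0.84 (adjusted p = 0.0424, edgeR) at mean levels of 1.41 CPM with AZD8186 and 0.800 CPM with DMSO, CD3D was not called there at −0.15, and CD2 fell by 1.24 in OCI-Ly10 (adjusted p = 0.00710, edgeR) at 0.586 CPM with AZD8186 and 1.40 CPM with DMSO. The part of these markers in the results was not tested. In bulk RNA, fewer cells of a type and less RNA per cell cannot be told apart.

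The synthetase genes were well measured before any inhibitor effect. In DMSO libraries, FARSA, which encodes the catalytic subunit of phenylalanyl-tRNA synthetase, had the highest level, at 293 ± 9.34 TPM in K422, 241 ± 19.7 in HT, 285 ± 24.2 in TMD8 and 227 ± 20.1 in OCI-Ly10 (SD, n = 3 for TMD8 and 4 for the other lines). By the mean over lines it was followed by KARS (223 TPM), GARS (144 TPM), QARS (139 TPM) and WARS (132 TPM), and the neighbors GARS, QARS and WARS did not keep this order in every line. The least abundant members were mitochondrial, with PARS2 at 6.30 TPM, HARS2 at 6.58 TPM and WARS2 at 7.02 TPM. The most abundant mitochondrial gene was IARS2 (42.3 TPM), which ranked 21 of 38, and LARS (39.0 TPM) was the only cytosolic enzyme gene below it. By the ratio of line means, lines differed most for CARS, with 94.2 ± 9.22 TPM in TMD8 and 24.3 ± 2.33 TPM in K422, and for HARS2, with 13.1 ± 0.787 TPM in HT and 3.56 ± 1.15 TPM in TMD8. WARS had 214 ± 27.2 TPM in OCI-Ly10 and 87.5 ± 1.86 TPM in HT. Over time in DMSO edgeR called 1 member, whereas limma on log2(TPM + 1) called 12 higher. The share of all genes called by limma, or with a library left out, was not worked out, so those counts have no background. IARS2 increased by 0.28 ± 0.06 (log2 over 6 to 24 h, SE; adjusted p = 0.00985, edgeR) where 7.22% of 12596 genes were called, 4.33% lower and 2.90% higher. Its DMSO values at 6, 12, 18 and 24 h were 106, 119, 135 and 141 CPM (counts scaled to a common library total) in K422, 134, 137, 133 and 155 CPM in HT and 69.2, 62.7, 72.5 and 77.9 CPM in OCI-Ly10, and in TMD8 they were 109, 129 and 138 CPM at 6, 18 and 24 h. Further calls were made in some fits, with 2 members higher without the DMSO library of HT at 12 or 24 h or of OCI-Ly10 at 12 or 18 h, and 1 member lower without that of HT, K422 or TMD8 at 6 h.

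**Figure D1:**
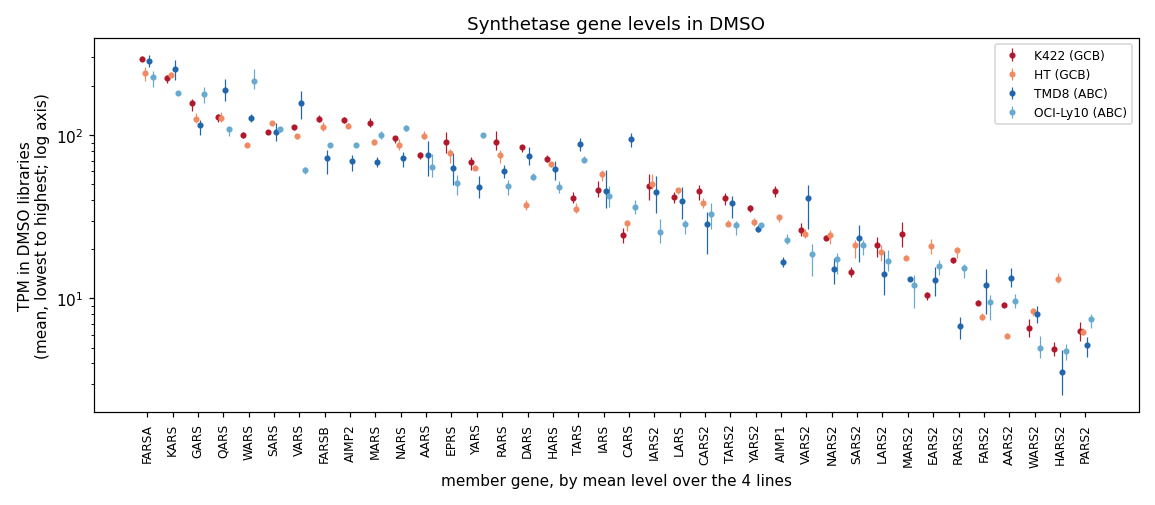
Level of each of the 38 genes in DMSO libraries (TPM, log axis), with a point for the mean of each cell line and a bar from its lowest to its highest library, ordered by the mean over the 4 lines. Mitochondrial enzyme genes fill most of the lower end, with PARS2 lowest at 6.30 TPM, and FARSA stands first at 261 TPM.

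In GCB lines, AZD8186 treatment lowered most cytosolic synthetase genes. Of the 20 genes, 16 fell, 1 rose and 3 were not called at an adjusted p under 0.05 (edgeR quasi-likelihood test), with a median log2 fold change of −0.28. Across all 10965 genes tested 49.4% were called, 23.5% lower and 25.9% higher, and the median was 0.02. YARS, GARS, FARSA and MARS had the smallest p among the cytosolic genes. AARS, CARS and DARS were not called.

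YARS encodes tyrosyl-tRNA synthetase and lies at chr1:32775237-32818153 (GRCh38, GENCODE annotation). At 6, 12, 18 and 24 h it had 93.0, 93.3, 90.7 and 102 CPM in AZD8186-treated K422, against 159, 148, 154 and 156 CPM with DMSO. In HT it had 121, 109, 113 and 116 CPM with AZD8186 and 163, 147, 155 and 150 CPM with DMSO. Every AZD8186 library of these lines was below every DMSO library, and the gene fell by 0.56 on the log2 scale (SE 0.05, adjusted p = 1.44e-06, edgeR; lower in 8 of 8 pairs).

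FARSA ranged from 222 to 289 CPM with AZD8186 (median 234), against 290 to 394 CPM with DMSO (median 347). The groups did not overlap, although the highest AZD8186 library and the lowest DMSO library were close, and FARSA fell by 0.53 (SE 0.06, adjusted p = 5.55e-06, edgeR). GARS, for glycyl-tRNA synthetase, ranged from 178 to 222 CPM (median 195) with AZD8186, against 224 to 280 CPM (median 257) with DMSO, and fell by 0.38 (SE 0.04, adjusted p = 5.14e-06, edgeR). MARS, for methionyl-tRNA synthetase, ranged from 167 to 180 CPM (median 174) with AZD8186, against 202 to 255 CPM (median 224) with DMSO. It fell by 0.37 (SE 0.05, adjusted p = 1.65e-05, edgeR). Of the exonic bases of MARS, 12.4% are shared with other genes, mostly ARHGAP9, and no source used here says whether reads were counted by strand.

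The 12 cytosolic genes outside the multisynthetase complex included 10 that fell, with a median of −0.32. Of the 8 enzymes of the complex, 6 fell and 1 rose, with a median of −0.23. Both scaffolds fell. AIMP1 ranged from 45.7 to 68.8 CPM (median 57.5) with AZD8186, against 59.4 to 85.0 CPM (median 72.0) with DMSO, and fell by 0.33 (SE 0.05, adjusted p = 6.14e-05, edgeR). AIMP2 ranged from 60.1 to 82.7 CPM (median 70.6) with AZD8186, against 86.3 to 98.1 CPM (median 89.1) with DMSO, and fell by 0.38 (SE 0.06, adjusted p = 7.12e-05, edgeR). Ranges over both lines overlapped for AIMP1 and not for AIMP2, while each gene was lower in 8 of 8 pairs. Exonic bases shared with other genes make up 28.9% of AIMP2, mostly with EIF2AK1, and 11.6% of AIMP1.

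**Figure D2:**
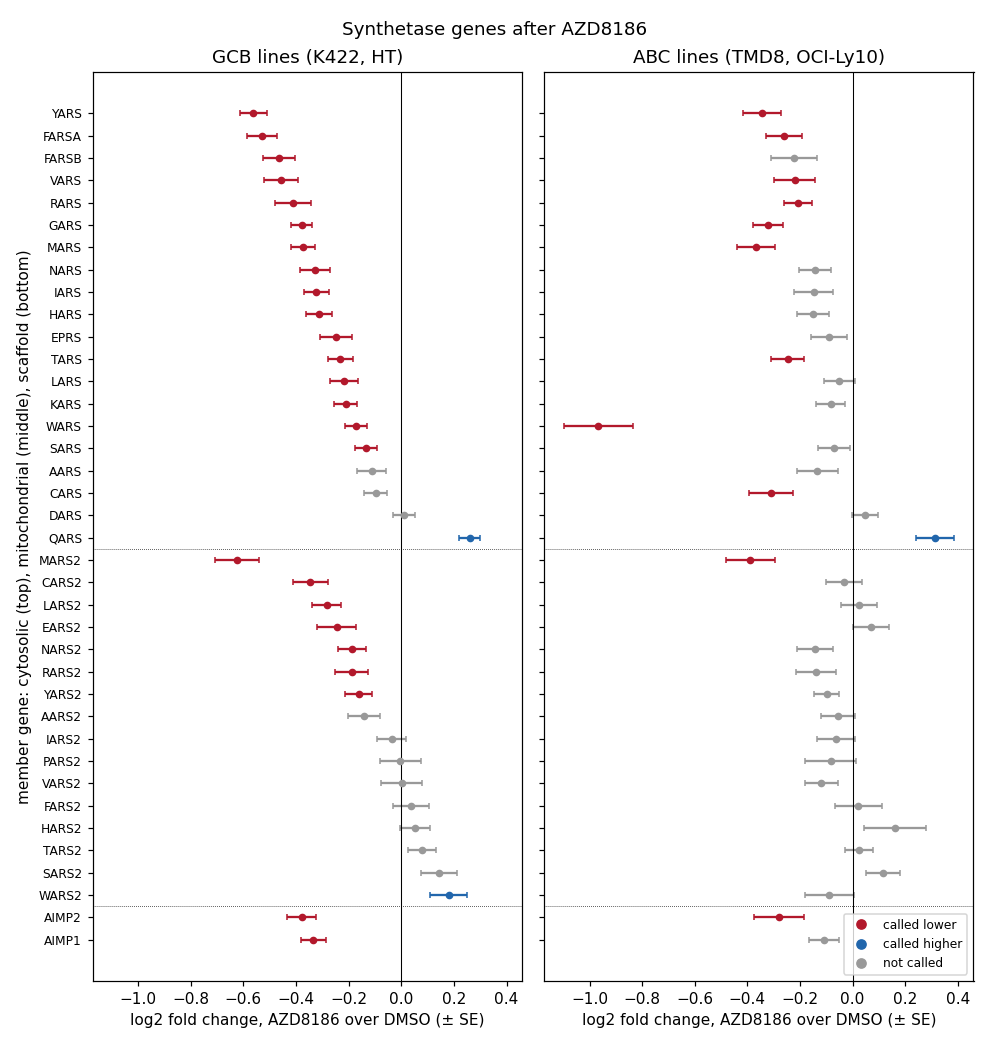
Log2 fold change of AZD8186 over DMSO with its standard error for each gene, in GCB lines (left) and ABC lines (right), cytosolic genes at the top, mitochondrial genes in the middle and scaffolds at the bottom. Red points fell, blue points rose and gray points were not called, with 25 red and 2 blue points in GCB lines and 11 red and 1 blue point in ABC lines.

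Mitochondrial synthetase genes were less uniform in GCB lines, where 7 of 16 fell, 1 rose and 8 were not called, with a median of −0.09. The genes that fell were MARS2, CARS2, LARS2, EARS2, NARS2, RARS2 and YARS2. Without the K422 12 h pair 4 of them were called lower. MARS2, an intronless gene at chr2:197705369-197708387, encodes the mitochondrial methionyl-tRNA synthetase and had 29.3, 25.2, 33.7 and 29.7 CPM in AZD8186-treated K422, against 52.4, 48.7, 62.5 and 55.8 CPM with DMSO. In HT it had 32.2, 32.1, 34.2 and 34.1 CPM with AZD8186 and 42.2, 41.8, 45.2 and 40.0 CPM with DMSO. No AZD8186 library reached the lowest DMSO library, and MARS2 had the most negative log2 fold change of the 38 genes, −0.63 (SE 0.08, adjusted p = 3.27e-05, edgeR).

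CARS2 ranged from 34.4 to 52.5 CPM (median 45.3) with AZD8186, against 48.9 to 66.8 CPM (median 55.8) with DMSO, and fell by 0.35 (SE 0.07, adjusted p = 0.000652, edgeR). LARS2 ranged from 47.8 to 58.9 CPM (median 53.9) with AZD8186, against 57.8 to 70.2 CPM (median 64.9) with DMSO, and fell by 0.28 (SE 0.05, adjusted p = 0.000649, edgeR). Both were lower in 7 of 8 pairs, with the HT 6 h pair as the exception, and their ranges overlapped. WARS2 was the mitochondrial gene that rose, by 0.18 (SE 0.07, adjusted p = 0.0437, edgeR). It was higher in 7 of 8 pairs, and the call was lost without the HT 6 h pair or the K422 6 h, 18 h or 24 h pair and in other settings given in the closing section.

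In ABC lines fewer genes were called. Of the 20 cytosolic genes 9 fell, 1 rose and 10 were not called, with a median of −0.18, where 29.1% of 11419 genes were called, 13.8% lower and 15.3% higher, and the median of all genes was 0.01. Of the 16 mitochondrial genes 1 fell and 15 were not called, with a median of −0.06. On log2(TPM + 1), which has no normalization between libraries beyond the total, limma called 18 cytosolic and 9 mitochondrial genes lower in ABC lines. On that scale the median of all genes was −0.15 in ABC lines and −0.03 in GCB lines, with 4279 genes lower and 620 higher in ABC lines against 1577 lower and 1750 higher by edgeR, and with 3077 lower and 2086 higher in GCB lines against 2576 lower and 2840 higher by edgeR. Relative to that shift, the median was −0.22 for cytosolic and −0.09 for mitochondrial genes.

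WARS, at chr14:100333788-100376805, had the most negative log2 fold change in ABC lines. In TMD8 it had 174, 144 and 143 CPM at 6, 18 and 24 h with AZD8186 and 292, 263 and 239 CPM with DMSO. In OCI-Ly10 it had 368, 199, 149 and 145 CPM at 6, 12, 18 and 24 h with AZD8186, against 484, 393, 408 and 472 CPM with DMSO. Within each line the AZD8186 libraries were all below the DMSO libraries, and in OCI-Ly10 each later treated library was lower than the one before. The log2 fold change was −0.97 (SE 0.13, adjusted p = 0.000233, edgeR; lower in 7 of 7 pairs). The same gene fell by 0.17 in GCB lines (SE 0.04, adjusted p = 0.00298, edgeR), from libraries of 144 to 177 CPM with AZD8186 and 167 to 195 CPM with DMSO. Shared exonic bases make up 10.6% of WARS.

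The other leading cytosolic genes in ABC lines were ones that also fell in GCB lines. MARS ranged from 110 to 229 CPM (median 145) with AZD8186, against 145 to 241 CPM (median 216) with DMSO, and fell by 0.37 (SE 0.07, adjusted p = 0.00239, edgeR). YARS ranged from 83.5 to 258 CPM (median 155) with AZD8186, against 117 to 279 CPM (median 228) with DMSO, and fell by 0.35 (SE 0.07, adjusted p = 0.00333, edgeR). GARS ranged from 148 to 377 CPM (median 231) with AZD8186, against 197 to 406 CPM (median 301) with DMSO, and fell by 0.32 (SE 0.06, adjusted p = 0.00131, edgeR). The ranges overlapped, also within OCI-Ly10, where the treated 6 h library of each gene lay above the lowest DMSO library, while all 7 pairs were lower for each of these genes.

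MARS2 was the mitochondrial gene that fell in ABC lines, by 0.39 (SE 0.09, adjusted p = 0.00758, edgeR). It had 18.1, 27.7 and 27.0 CPM in AZD8186-treated TMD8, against 36.7, 31.9 and 28.4 CPM with DMSO. In OCI-Ly10 it had 19.8, 25.9, 21.5 and 22.2 CPM with AZD8186, against 23.7, 31.8, 32.4 and 27.1 CPM with DMSO. The gap was widest in the TMD8 6 h pair and narrowest in the TMD8 24 h pair. AIMP2 ranged from 33.9 to 69.7 CPM (median 52.2) with AZD8186, against 52.9 to 77.7 CPM (median 62.1) with DMSO, and fell by 0.28 (SE 0.09, adjusted p = 0.0364, edgeR). That call was lost without the OCI-Ly10 12 h, 18 h or 24 h pair or the TMD8 18 h pair, with adjusted p up to 0.108 (edgeR). AIMP1 was not called, at −0.11 (SE 0.06, adjusted p = 0.170, edgeR).

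QARS, for glutaminyl-tRNA synthetase, moved against the other cytosolic genes and was singled out after its values were seen. It lies at chr3:49095932-49105135, and none of its exonic bases are shared with another gene. In K422 it had 279, 331, 307 and 320 CPM with AZD8186, against 248, 278, 251 and 259 CPM with DMSO. In HT it had 327, 345, 321 and 338 CPM with AZD8186, against 270, 263, 281 and 292 CPM with DMSO. The gene rose by 0.26 in GCB lines (SE 0.04, adjusted p = 0.0001, edgeR), was higher in 8 of 8 pairs, and the groups did not overlap within either line. In TMD8 it had 475, 492 and 444 CPM with AZD8186, against 413, 416 and 421 CPM with DMSO. In OCI-Ly10 it had 259, 316, 340 and 352 CPM with AZD8186, against 244, 244, 235 and 223 CPM with DMSO. It rose by 0.31 in ABC lines (SE 0.07, adjusted p = 0.00587, edgeR) and was higher in 7 of 7 pairs. On log2(TPM + 1) in ABC lines the change was 0.11 (adjusted p = 0.221, limma), or 0.26 relative to the median of all genes on that scale.

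**Figure D3:**
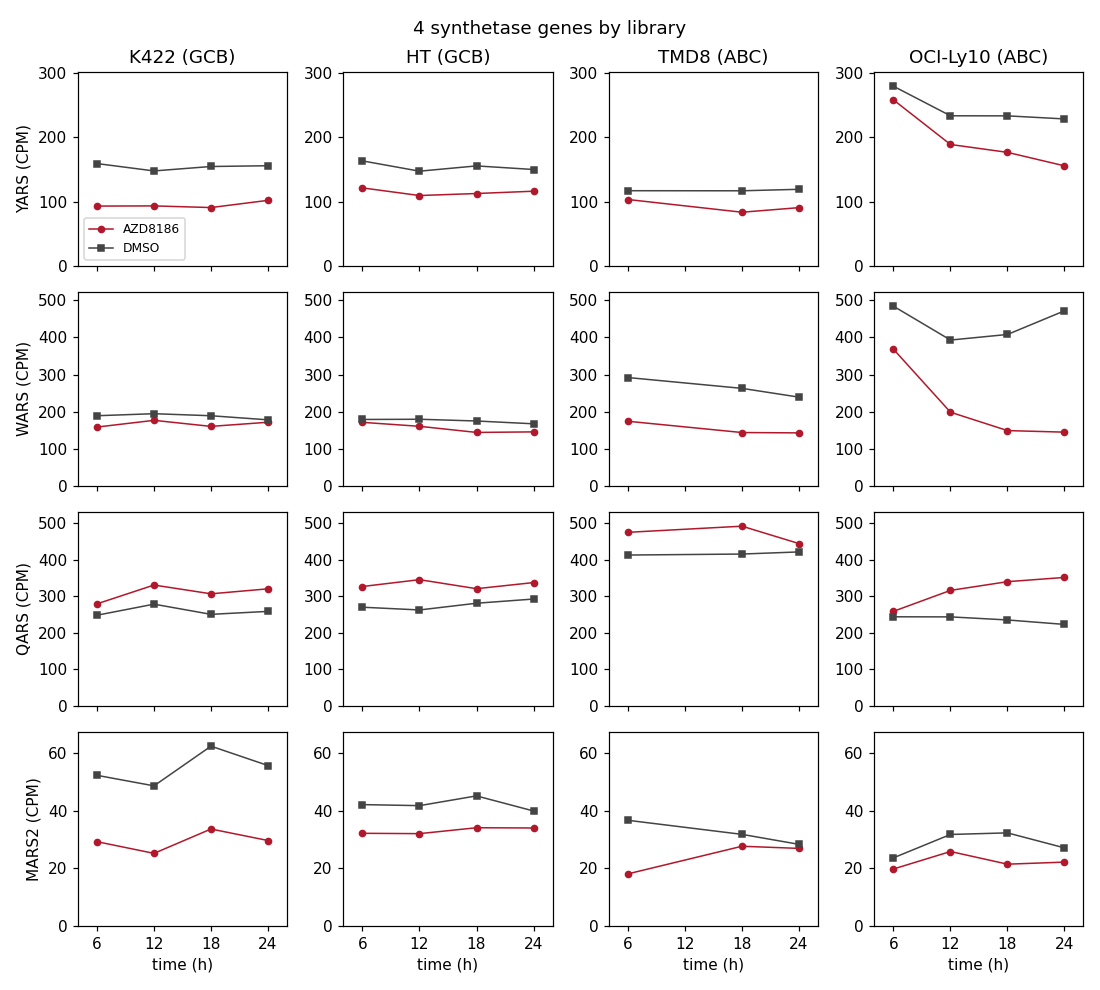
Level (CPM) of YARS, WARS, QARS and MARS2 (rows) in each library by time in hours, with AZD8186 in red and DMSO in gray, for K422, HT, TMD8 and OCI-Ly10 (columns). WARS parts most in OCI-Ly10, where it reaches 145 CPM with AZD8186 and 472 CPM with DMSO at 24 h, and QARS lies above its DMSO library at every time.

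By cell line, 26 members fell and 1 rose in K422, where 46.9% of genes were called, 24.0% lower and 22.9% higher. In HT 20 fell and 1 rose, with 37.5% of genes called, 18.9% lower and 18.6% higher. In OCI-Ly10 12 fell and 1 rose, with 29.2% of genes called, 14.6% lower and 14.5% higher. In TMD8 CARS and WARS fell and none rose by edgeR, with 3.59% of genes called, 1.23% lower and 2.36% higher. At an unadjusted p under 0.05, 9 members were lower and 0 higher in TMD8, where 22.8% of genes passed. Limma on TPM called 9 members lower there. Within lines, the share of all genes called by limma or with a pair left out was not worked out. Those counts therefore have no background. Counts within a line rest on 3 or 4 pairs. Without the HT 18 h pair 12 members fell in HT, without the OCI-Ly10 12 h, 18 h and 24 h pairs 6, 4 and 4 fell in OCI-Ly10, and in TMD8 11 fell without the 6 h pair and 0 without the 18 h or 24 h pair. Members that rose numbered 0 in K422 without the 12 h or 18 h pair and 2 without the 24 h pair, 2 in HT without the 6 h pair and 2 in OCI-Ly10 without the 6 h pair.

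Between subtypes, 10 members fell in both, 15 fell in GCB lines without a call in ABC lines, CARS fell in ABC lines without a call in GCB lines, and no member was called in opposite directions. Of all genes tested, 23.5% fell in GCB lines and 13.8% in ABC lines. The share of all genes that fell in both, or in GCB lines only, was not worked out, so these counts have no background. A test of the difference was needed to compare the responses. It called 4 members lower and 1 higher in GCB than in ABC lines, with 13.4% of 11286 genes called, 6.08% lower and 7.32% higher. GCB was represented only by K422 and HT, and ABC only by TMD8 and OCI-Ly10. Pairs of these lines served as replicates, so differences between subtypes and between cell lines cannot be told apart. WARS differed by 0.82 (SE 0.14, adjusted p = 0.00107, edgeR), the response being weaker in GCB lines. EARS2 differed by −0.31 (SE 0.09, adjusted p = 0.0319, edgeR), CARS2 by −0.30 (SE 0.09, adjusted p = 0.0264, edgeR), LARS2 by −0.30 (SE 0.08, adjusted p = 0.0236, edgeR) and AIMP1 by −0.22 (SE 0.06, adjusted p = 0.0302, edgeR).

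The mitochondrial genes among these were near their DMSO levels in ABC lines. LARS2 ranged from 38.3 to 65.1 CPM (median 54.1) with AZD8186, against 40.9 to 59.9 CPM (median 55.5) with DMSO. CARS2 ranged from 29.4 to 49.3 CPM (median 43.1) with AZD8186, against 29.5 to 52.6 CPM (median 42.5) with DMSO. EARS2 ranged from 33.0 to 49.3 CPM (median 44.1) with AZD8186, against 34.9 to 44.3 CPM (median 41.1) with DMSO. The groups overlapped throughout for these 3 genes, and they had log2 fold changes of 0.02, −0.03 and 0.07, where the log2(TPM + 1) values of LARS2 and EARS2 were negative (−0.16 and −0.11). The 4 lower calls depended on scale and library. On log2(TPM + 1) limma called 0 members lower (adjusted p = 0.348 for LARS2, 0.286 for CARS2 and 0.397 for AIMP1) and 3 higher, and edgeR called 1 lower without the K422 12 h or the OCI-Ly10 12 h pair and 2 lower without the K422 18 h, OCI-Ly10 24 h or TMD8 24 h pair. WARS was called in each of these fits. Shares of all genes called in them were not worked out, so the counts have no background.

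Within GCB lines, the response was more negative in K422 than in HT for 9 members and more positive for none, where 16.6% of 10965 genes were called, 9.33% lower and 7.30% higher. MARS2 differed by −0.54 (SE 0.07, adjusted p = 0.00122, edgeR). RARS, for arginyl-tRNA synthetase, differed by −0.37 (SE 0.09, adjusted p = 0.0154, edgeR). It had 95.2, 83.0, 86.7 and 90.3 CPM in AZD8186-treated K422, against 125, 129, 136 and 148 CPM with DMSO, and in HT 115, 101, 101 and 98.1 CPM with AZD8186, against 131, 107, 122 and 126 CPM with DMSO. The groups were apart in K422 and overlapped in HT. YARS differed by −0.28 (SE 0.07, adjusted p = 0.0156, edgeR) and LARS, for leucyl-tRNA synthetase, by −0.27 (SE 0.07, adjusted p = 0.0199, edgeR). LARS was at 117, 126, 118 and 114 CPM in AZD8186-treated K422, against 148, 150, 157 and 153 CPM with DMSO, and at 186, 166, 165 and 167 CPM in AZD8186-treated HT, against 185, 180, 176 and 182 CPM with DMSO. FARSA, MARS, HARS, YARS2 and AIMP2 made up the rest of the 9. Only 3 or 4 members were called without the HT 6 h, 12 h, 18 h or 24 h or the K422 12 h or 18 h pair, and MARS2 was called in all 8 of the fits that left out a pair. Between TMD8 and OCI-Ly10 0 members differed by edgeR, where 0.429% of 11419 genes did, 0.149% lower and 0.280% higher. Limma on TPM called 0 members as well. At an unadjusted p under 0.05, 3 members were lower and 0 higher, where 10.7% of genes passed. Without the TMD8 6 h pair edgeR called 3 members.

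Cytosolic genes were set against mitochondrial genes in every line and at every time, with no test because members were chosen with results known. The cytosolic median log2 ratio was below the mitochondrial one in all 15 pairs. In K422 the cytosolic medians at 6, 12, 18 and 24 h were −0.26, −0.41, −0.47 and −0.42, and the mitochondrial ones −0.11, −0.11, −0.19 and −0.30. In HT they were −0.07, −0.16, −0.27 and −0.23 for cytosolic genes and 0.05, 0.01, −0.08 and −0.05 for mitochondrial genes. In TMD8 at 6, 18 and 24 h they were −0.16, −0.29 and −0.20 for cytosolic and 0.02, −0.13 and −0.10 for mitochondrial genes. In OCI-Ly10 they were −0.02, −0.12, −0.24 and −0.30 for cytosolic genes and 0.05, 0.09, −0.03 and −0.09 for mitochondrial genes. The difference of the medians averaged −0.21 ± 0.09 in K422, −0.17 ± 0.03 in HT, −0.14 ± 0.04 in TMD8 and −0.18 ± 0.07 in OCI-Ly10 (SD over 4, 4, 3 and 4 times). The median of all genes tested stayed between −0.01 and 0.03.

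**Figure D4:**
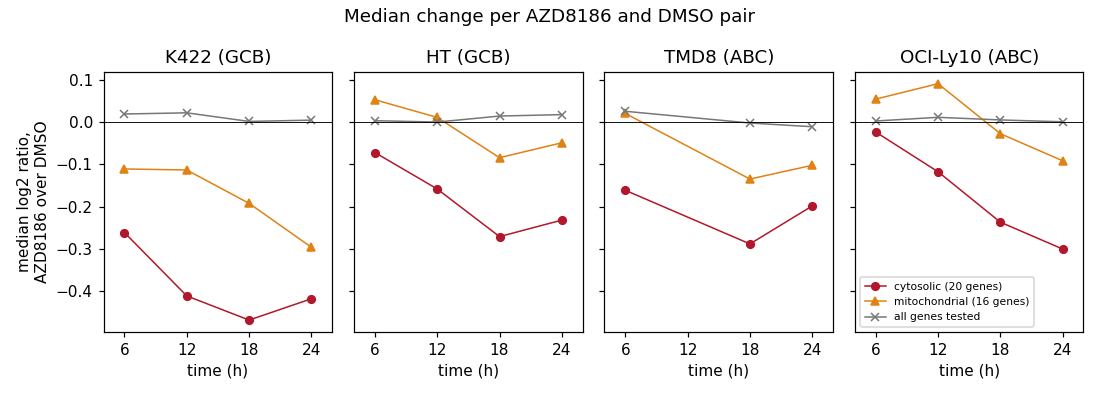
Median log2 ratio of AZD8186 over DMSO per pair against time in hours, for the 20 cytosolic genes (circles), the 16 mitochondrial genes (triangles) and all genes tested (crosses), with a panel for each line. The circles lie below the triangles at every time, most in K422 at 12 h (−0.41 and −0.11).

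In the summed level, the 20 cytosolic genes reached 1545 ± 84.0 TPM in AZD8186-treated K422, against 2096 ± 87.7 TPM with DMSO, and the 16 mitochondrial genes 284 ± 29.2 TPM, against 346 ± 16.5 TPM (SD, n = 4). In HT the cytosolic sum was 1639 ± 57.1 TPM with AZD8186 and 1911 ± 58.9 TPM with DMSO, and the mitochondrial sum 318 ± 7.85 and 336 ± 7.32 TPM. In TMD8 it was 1533 ± 139 TPM with AZD8186 and 2099 ± 255 TPM with DMSO (n = 3), and in OCI-Ly10 1486 ± 215 TPM with AZD8186 and 1924 ± 103 TPM with DMSO (n = 4). The mitochondrial sum was 243 ± 23.6 TPM with AZD8186 and 307 ± 62.7 TPM with DMSO in TMD8, and 234 ± 12.1 TPM with AZD8186 and 269 ± 25.4 TPM with DMSO in OCI-Ly10. Libraries of the groups did not overlap in any of the 4 lines for the cytosolic sum, and they overlapped in TMD8 and OCI-Ly10 for the mitochondrial sum. These sums have no normalization between libraries beyond the total. On log2(TPM + 1) the median change of all genes was −0.15 in ABC lines and −0.03 in GCB lines, and its part in the sums was not tested.

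Set against the mitochondrial enzyme for the same amino acid, the cytosolic gene had the lower log2 fold change in 11 of 15 pairings in GCB lines and in 14 of 15 in ABC lines, where both subunit genes FARSA and FARSB were paired with FARS2. Methionine was an exception in both, with −0.37 for MARS and −0.63 for MARS2 in GCB lines and −0.37 and −0.39 in ABC lines. For cysteine the values were −0.10 for CARS and −0.35 for CARS2 in GCB lines and −0.31 and −0.03 in ABC lines. HARS and HARS2, for cytosolic and mitochondrial histidyl-tRNA synthetase, lie head to head on chromosome 5, and their promoter windows share 184 bases. HARS ranged from 84.0 to 105 CPM (median 93.6) in AZD8186-treated GCB lines, against 108 to 121 CPM (median 117) with DMSO, and fell by 0.31 (SE 0.05, adjusted p = 0.000101, edgeR). HARS2 ranged from 7.89 to 29.2 CPM (median 17.0) with AZD8186, against 8.22 to 27.1 CPM (median 16.3) with DMSO, and was not called, at 0.05 (SE 0.06, adjusted p = 0.481, edgeR) and at −0.01 on log2(TPM + 1). Their exons overlap in the annotation. Of the exonic bases of HARS2, 15.8% are shared with other genes, and HARS shares the most of them.

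**Figure D5:**
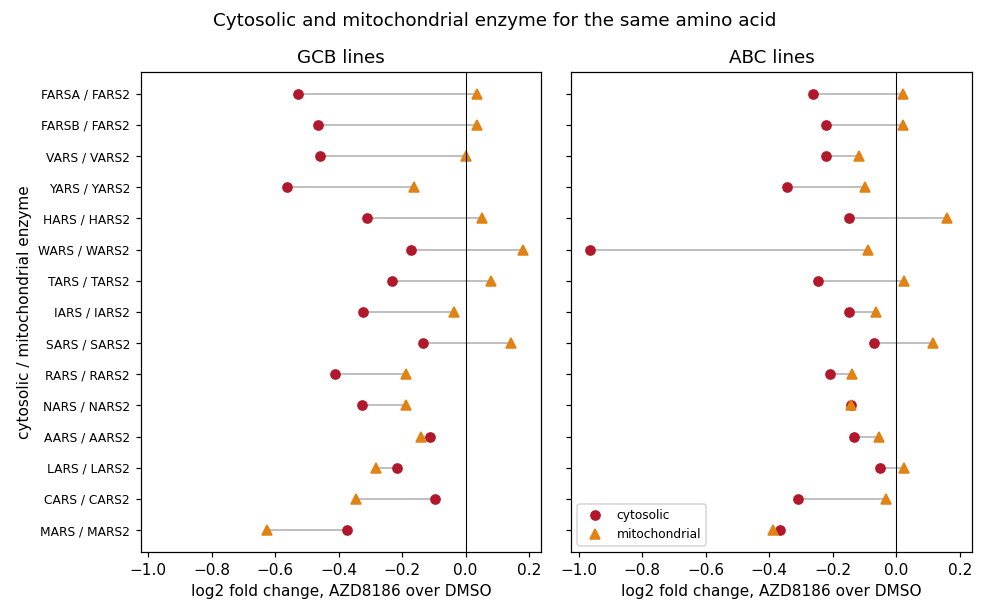
Log2 fold change of AZD8186 over DMSO for the cytosolic (circle) and mitochondrial (triangle) enzyme gene of each amino acid, in GCB lines (left) and ABC lines (right). WARS shows the widest gap in ABC lines, −0.97 against −0.09 for WARS2, and MARS2 lies left of MARS in both panels.

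The responses at 18 to 24 h and at 6 to 12 h were compared within each subtype. By edgeR 0 members and 0% of 10965 genes differed in GCB lines, and 0 members and 0% of 11419 genes in ABC lines. At an unadjusted p under 0.05, 3 members were lower and 0 higher in GCB lines, where 6.92% of genes passed, and 12 were lower and 0 higher in ABC lines, where 11.9% passed. Limma on TPM also called 0 members in either. The smallest adjusted p of a member was 0.175, for AARS in ABC lines, at −0.35 (SE 0.09, edgeR).

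Genes around the charging step were described from other lists. Of 13 genes for accessory factors, 4 fell and 0 rose in GCB lines, where 23.5% of all genes fell and 25.9% rose. In ABC lines 2 fell and 1 rose, where 13.8% of all genes fell and 15.3% rose. The shares of this list that fell lay near those of all genes. EEF1E1, the third scaffold of the complex, ranged from 29.6 to 51.8 CPM (median 40.5) with AZD8186, against 43.8 to 63.7 CPM (median 53.2) with DMSO in GCB lines, and fell by 0.47 (SE 0.06, adjusted p = 1.39e-05, edgeR) and, in ABC lines, by 0.26 (SE 0.06, adjusted p = 0.00799, edgeR). PTRH2, a peptidyl-tRNA hydrolase, fell by 0.54 in GCB lines (adjusted p = 4.85e-05, edgeR), as did AARSD1, an editing factor for mischarged alanine tRNA, by 0.35 (adjusted p = 0.000606, edgeR). In ABC lines QRSL1, a subunit of the mitochondrial amidotransferase that makes glutaminyl-tRNA, rose by 0.28 (adjusted p = 0.0107, edgeR).

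Of 31 genes of the amino acid response, 28 were tested in each subtype. By edgeR 16 were lower and 5 higher in GCB lines, where 23.5% of all genes were lower and 25.9% higher. In ABC lines 14 were lower and 0 higher, where 13.8% of all genes were lower and 15.3% higher. At an unadjusted p under 0.05, 16 were lower and 2 higher in ABC lines, where 40.5% of all genes passed. ATF4 itself, named after its values were seen, fell in both, by 0.33 in GCB and by 0.45 in ABC lines. The 5 genes higher in GCB lines were not among the 3 of smallest p and are not named. Log2 fold changes in the list reached from −0.81 to 0.54 there. SLC1A5, a glutamine transporter, ranged from 144 to 233 CPM (median 192) with AZD8186, against 300 to 354 CPM (median 326) with DMSO in GCB lines, without overlap, and fell by 0.78 (SE 0.08, adjusted p = 5.37e-06, edgeR). It fell by 0.68 in ABC lines (SE 0.12, adjusted p = 0.00112, edgeR). In GCB lines SLC7A5, a transporter of large neutral amino acids, fell by 0.78 (adjusted p = 1.7e-06, edgeR) and DDIT4, an inhibitor of mTOR complex 1, by 0.75 (adjusted p = 1.17e-06, edgeR). In ABC lines SLC7A5 was not called, at −0.01 (adjusted p = 0.954, edgeR), with 0.31 in TMD8 (adjusted p = 0.149, edgeR) and −0.24 in OCI-Ly10 (adjusted p = 0.0423, edgeR), and DDIT4 was not called, at 0.29 (adjusted p = 0.0857, edgeR). The difference between subtypes was −0.76 for SLC7A5 (adjusted p = 0.00149, edgeR) and −1.01 for DDIT4 (adjusted p = 6.28e-06, edgeR). In ABC lines CHAC1, a glutathione-degrading enzyme, fell by 1.36 (adjusted p = 0.000158, edgeR) at low levels of 0.603 to 3.01 CPM with AZD8186 and 1.93 to 5.52 CPM with DMSO, and SLC7A1, a transporter of cationic amino acids, fell by 0.66 (adjusted p = 0.000218, edgeR).

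Cytosolic elongation factor genes went the other way. Of 5 genes, 4 rose and 0 fell in GCB lines, where 25.9% of all genes rose, and 5 rose and 0 fell in ABC lines, where 15.3% did (edgeR). The counts were the same at an unadjusted p under 0.05, which 56.0% of all genes passed in GCB lines and 40.5% in ABC lines. EEF2, which moves the ribosome along the mRNA, rose by 0.54 in GCB lines (SE 0.07, adjusted p = 1.76e-05, edgeR). EEF1A1, which brings charged tRNA to the ribosome, rose by 0.34 in GCB lines (SE 0.05, adjusted p = 0.000117, edgeR) and by 0.39 in ABC lines (SE 0.09, adjusted p = 0.00526, edgeR), and EEF1G, a subunit of its exchange factor, by 0.22 (adjusted p = 0.00469, edgeR) and 0.35 (adjusted p = 0.00688, edgeR). EEF1B2, another subunit, rose by 0.32 in ABC lines (adjusted p = 0.00829, edgeR), a call that limma on TPM did not make (adjusted p = 0.0721). Of 4 mitochondrial elongation factor genes, 2 fell in GCB lines, GFM1 by 0.31 (adjusted p = 0.000308, edgeR) and TSFM by 0.20 (adjusted p = 0.00421, edgeR), and GFM1 fell by 0.25 in ABC lines (adjusted p = 0.0138, edgeR), where the call was lost without the OCI-Ly10 18 h or the TMD8 18 h pair (adjusted p = 0.0621 and 0.0533).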

How the data were processed

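The study's methods name the NucleoSpin RNA Plus kit for extraction, HISAT2 for alignment against the human transcriptome and RSEM for gene-level estimates. The submitters' processing notes name GRCh38.p12 and no version of either program. The expected counts deposited by the authors are RSEM estimates for 21112 genes per library without normalization. The TPM deposited by the authors are scaled by effective length and library total and served for levels and as an alternative. The FPKM deposited by the authors were not used. The dose of 0.5 µM comes from the labels.

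Expected counts were rounded, filtered with filterByExpr by treatment, scaled by TMM and fitted in R 4.3.3 with the quasi-likelihood F test of edgeR 4.0.16, with cell line and time as terms within a subtype and time as term within a line. Differences of the response used interaction terms in a fit blocked by pair, and time in DMSO a linear term with cell line. The threshold for a call was 0.05 after Benjamini-Hochberg adjustment over all genes tested. Log2 ratios per pair used a prior count of 2. Alternatives used DESeq2 1.42.0, limma 3.58.1 and log2(TPM + 1). The steps were tested on simulated data, where calls within K422 and within TMD8 held a larger share of false ones than the threshold allows and small changes were mostly missed. Calls within HT and within OCI-Ly10 were not simulated. Pairs come from the cell line and time in the labels. The deviations of paired libraries from their line and treatment means correlated at −0.03 to 0.36, and 13 of 15 AZD8186 libraries matched their own DMSO library best. No library was a copy of another. Gene positions and exon overlaps come from GENCODE 29, and promoter windows from RefSeq on GRCh38.p14.

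The members and lists were chosen with earlier results of these data known. Named in full were, per subtype, the 4 cytosolic and 3 mitochondrial members of smallest p among those called, both scaffolds, members called in opposite directions, the 4 of smallest p in each difference and in the DMSO slope and, of each other list, the 3 of smallest p. QARS, WARS2, CARS, HARS, HARS2, EARS2 and ATF4 were named after their values were seen. A gene that the rule selected from the list of accessory factors is not reported here.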

Additional observations from a re-analysis of the deposited data

Results flagged for a closer look

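Of 42 groups of 4 pairs examined (14 members in K422, HT and OCI-Ly10), 2 had a pair far from the others, where chance gives about 1 in 20 groups, or 2.1. Both concerned MARS2. Its log2 ratio was −0.23 in HT at 24 h, with the other times between −0.40 and −0.38, and −0.59 in OCI-Ly10 at 18 h, with the other times between −0.30 and −0.26.

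Responses that differed between GCB and ABC lines by the test of the difference were WARS (0.82), CARS2 (−0.30), EARS2 (−0.31), LARS2 (−0.30) and AIMP1 (−0.22). Between K422 and HT they were FARSA (−0.29), HARS (−0.23), LARS (−0.27), MARS (−0.24), RARS (−0.37), YARS (−0.28), MARS2 (−0.54), YARS2 (−0.28) and AIMP2 (−0.28), each as a difference of log2 fold changes.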

How the results depend on the processing

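No called gene named by the rule changed direction under any alternative, and neither did QARS in the comparisons by subtype. Within TMD8 the mean TPM of QARS was lower with AZD8186 than with DMSO. The direction of the other called members was followed only on log2(TPM + 1), in the comparisons by subtype. On log2(TPM + 1) the sign differed from edgeR for 4 of 38 members in GCB lines and 7 of 38 in ABC lines, 0 of them called by edgeR, and the median of all genes was −0.03 and −0.15 there, against 0.02 and 0.01 by edgeR. The pair as a replicate block in place of cell line and time left all calls of named genes on their side of the threshold, with 16 cytosolic genes lower in GCB lines and 10 in ABC lines. Mitochondrial genes higher in GCB lines numbered 0 with limma on TPM, 0 without a filter, 2 with at least 5 CPM, 0 without the 6 h libraries, 0 without terms for line and time and 0 to 1 with a pair left out. Without those terms 3 mitochondrial genes fell in GCB lines, and in ABC lines 0 cytosolic and 0 mitochondrial genes fell and 0 rose, and over all genes 770 were lower and 622 higher in GCB lines and 75 and 97 in ABC lines. Limma on TPM gave 18 cytosolic and 9 mitochondrial genes lower and 0 cytosolic genes higher in ABC lines, 0 members higher in K422, 0 higher in OCI-Ly10, 9 lower in TMD8, 0 lower and 3 higher for GCB minus ABC, and 12 higher over time in DMSO, where DESeq2 size factors gave 2. Without the 6 h libraries 2 mitochondrial genes fell in ABC lines. The causes were not tested. Within lines, for differences and over time in DMSO, shares of all genes under the alternatives were not worked out. Counts of members there have no background. With a pair left out in turn, lower mitochondrial genes in GCB lines ranged from 4 to 8. Members lower ranged from 12 to 23 in HT, 0 to 11 in TMD8, 4 to 14 in OCI-Ly10, 1 to 6 for GCB minus ABC, 3 to 13 for K422 minus HT, 0 to 3 for TMD8 minus OCI-Ly10 and 0 to 1 over time in DMSO. Members higher ranged from 0 to 2 in K422, 1 to 2 in HT, 1 to 2 in OCI-Ly10 and 1 to 2 over time in DMSO. The difference of cytosolic and mitochondrial medians stayed within the spread between times in every line under all its alternatives. Each line, treatment and time has 1 library, which limits each test within a line to 3 or 4 pairs.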
